A study of Rattus norvegicus with 9 samples.

Results

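The genes described here were chosen by symbol from knowledge of the pathway, with earlier results of these data known. They are 10 genes of the NRF2 antioxidant response: Nfe2l2, Keap1, Hmox1, Nqo1, Gclc, Gclm, Slc7a11, Gsr, Txnrd1 and Srxn1. Of these, 9 had a row among the 32883 rows of the deposited gene table, and all 9 were among the 15068 genes with enough reads to be tested. Srxn1 is not analysed here beyond a search of its promoter window. The samples are synovium, the soft membrane that lines joints, from rats of the Lewis strain, with 3 RNA-seq libraries in each of 3 groups. The groups carry the treatment labels TZG, AIA and NC, read from the series title as the Tianhe Zhuifeng extract group, the arthritis model and the control. The labels do not state age, sex, dose, timing, the way arthritis was induced or whether TZG animals had arthritis, and name no allele. Nor do they say whether each library is a separate animal; if not, the spread behind the p-values is technical.

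NRF2, encoded by Nfe2l2, is a transcription factor that is held low in resting cells because the sensor protein KEAP1 hands it to a cullin 3 ubiquitin ligase for degradation. Electrophiles and oxidants modify cysteines of KEAP1, NRF2 escapes, pairs with a small MAF protein and binds antioxidant response elements beside genes for glutathione synthesis, thioredoxin reduction, haem breakdown and quinone reduction. The system is largely set at the level of NRF2 protein, which RNA levels do not measure, and in inflamed joints its target enzymes are known mainly from macrophages, synovial fibroblasts and chondrocytes.

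The element's core was searched as TGACNNNGC on both strands in RefSeq's promoter windows of assembly GRCr8, from 250 bases before to 50 bases after each annotated start. Its form TGACTCAGC contains the AP-1 motif TGANTCA, so the 2 searches overlap. Across all 33469 windows, 12.1% held TGACNNNGC, 0.415% held TGACTCAGC and 7.33% held TGANTCA. Windows existed for 8 of the 10 genes (9 windows), Srxn1 among them. Of these genes, 3 held the core: Gclm, Txnrd1 in 1 of its 2 windows, and Nfe2l2 just after its start. A match is a description of letters and does not show binding. Gclm and Txnrd1 are printed with 25 bases on each side of the match, in capitals; Gclm lies on the plus strand of chr2:213031938-213031996 and Txnrd1 on the minus strand of chr7:22755949-22756007, with the matches starting 172 and 78 bases before the start.
Gclm: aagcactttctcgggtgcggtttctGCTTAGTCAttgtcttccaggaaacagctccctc
Txnrd1: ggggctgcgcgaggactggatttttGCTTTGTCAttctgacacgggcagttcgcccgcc

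Slc7a11 and Nqo1, the genes that passed the test between TZG and NC, had no TGACNNNGC in their windows, which says only that these letters are not within this stretch. The 250 bases before each start are printed because the results turn on these genes. The Slc7a11 stretch is the minus strand of chr2:136668265-136668514 and the Nqo1 stretch the minus strand of chr19:52220268-52220517, both in GRCr8.
Slc7a11: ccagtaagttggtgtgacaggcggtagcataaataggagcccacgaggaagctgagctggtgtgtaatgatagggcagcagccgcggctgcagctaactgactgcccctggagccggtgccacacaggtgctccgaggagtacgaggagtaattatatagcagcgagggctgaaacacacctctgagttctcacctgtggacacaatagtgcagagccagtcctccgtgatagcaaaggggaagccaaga
Nqo1: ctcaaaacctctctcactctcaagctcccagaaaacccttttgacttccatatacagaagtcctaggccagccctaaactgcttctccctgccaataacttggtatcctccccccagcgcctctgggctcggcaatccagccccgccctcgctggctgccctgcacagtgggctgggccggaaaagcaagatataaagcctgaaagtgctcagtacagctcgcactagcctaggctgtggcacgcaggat

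Library totals ran from 12536231 to 16402126 reads. The libraries are called by their column names, and values per library are given in this order: G30, G31, G48 for TZG; M2, M6, M8 for AIA; C56, C59, C61 for NC. Of these, 4 (G31, G48, M2 and M8) were placed by the letter of the column only. Prg4, the lubricin gene that marks lining fibroblasts, was present in every library, between 1197 and 7303 CPM, reads scaled to library size. Summed synovial fibroblast markers (6 of 6, Prg4 among them) ran from 2073 to 4084 CPM in TZG and 3295 to 7481 CPM in AIA. In NC they ran from 1463 CPM, the lowest of all libraries, in C61 to 8055 CPM. Tissue make-up differed between libraries. Summed neutrophil markers (6 of 6 in the table) ran from 414 to 3199 CPM in TZG, 276 to 2908 CPM in AIA and 3.82 to 8.03 CPM in NC. Summed macrophage markers (8 of 8) ran from 1022 to 1224 CPM in TZG, 729 to 1275 CPM in AIA and 261 to 1197 CPM in NC. Skeletal muscle markers (6 of 6) reached 25630 CPM in NC library C61, against at most 53.7 CPM in TZG and 38.8 CPM in AIA. Cartilage markers (6 of 6) reached 7860 CPM in G48, and red cell precursor markers (5 of 6) 691 CPM in M8. No defining marker of these lists that was in the table was at 0 in all libraries. In bulk tissue, fewer cells of a type and less RNA per cell cannot be told apart, and the part of these cell types in the results below was not tested.

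**Figure D1:**
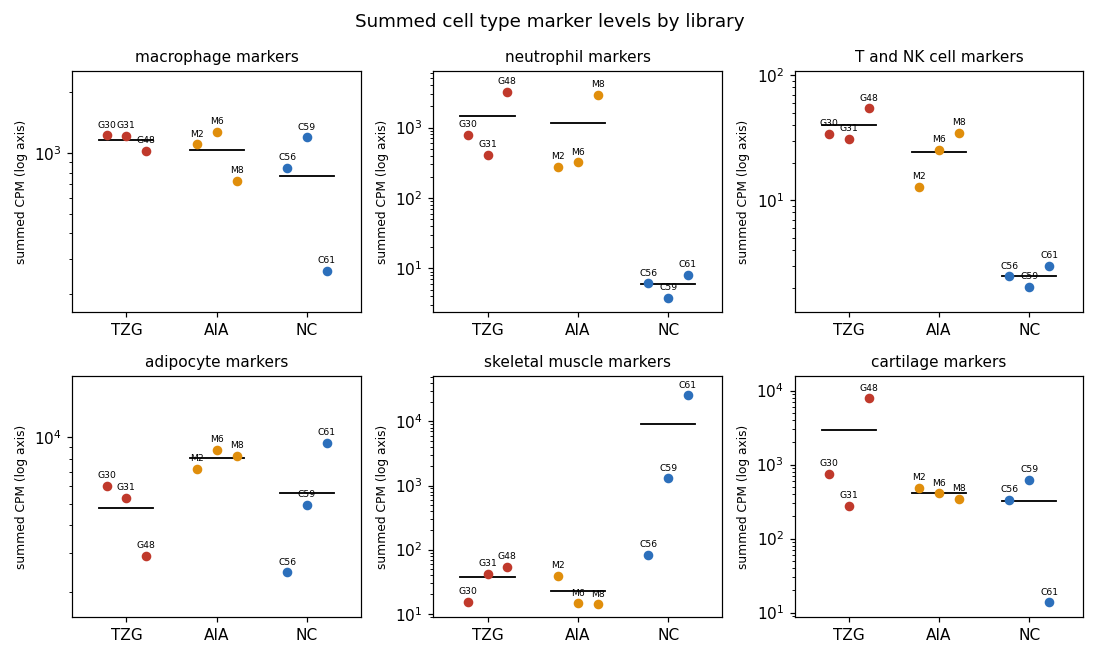
Summed CPM of cell type markers (log axis) in each library, by group, for 6 marker lists. Neutrophil markers sat at 414 to 3199 in TZG, 276 to 2908 in AIA and 3.82 to 8.03 in NC, while muscle markers stood out in NC library C61.

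Between AIA and NC, the question is how arthritis synovium differed from control synovium; none of the 9 genes passed the test (edgeR quasi-likelihood, Benjamini-Hochberg adjusted p under 0.05), against 0.0133% of all genes tested. At an unadjusted p under 0.05 there were 2 of the 9, Nqo1 and Slc7a11, against 15% of all genes. Between TZG and AIA, the comparison for the extract, again none of the 9 passed, against 0% of all genes, and 1, Txnrd1, had an unadjusted p under 0.05, against 12.6%. Between TZG and NC, 2 of the 9 passed, against 10.3% of all genes. Slc7a11 was the 1 higher, against 5.79% of all genes, and Nqo1 the 1 lower, against 4.53%. At an unadjusted p under 0.05 there were 4 of the 9, against 29.1% of all genes. The median log2 fold change of the 9 genes was 0.01 in AIA against NC, 0.03 in TZG against AIA and -0.04 in TZG against NC, beside -0.01, 0.00 and -0.02 for all genes. Fold changes of the 9 genes had both signs in every comparison. DESeq2 on the same counts called 2 of the 9 in AIA against NC, none in TZG against AIA and 4 in TZG against NC, where it called 6.26%, 2.12% and 19.7% of the genes it tested. By the q-values of the authors' deposited table (under 0.05), Hmox1 and Slc7a11 were called in TZG against NC, where 8.54% of the listed genes were, and no member was in AIA against NC (4.32% of genes) or TZG against AIA (0.578% of genes).

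In TZG against NC the libraries of the groups did not overlap for 5 of the 9 genes, against 32.6% of all genes; 3 were higher (17.4% of all genes) and 2 lower (15.2%). In AIA against NC this held for 2 of the 9, against 20.5%, with 1 higher (11.2%) and 1 lower (9.22%). In TZG against AIA it held for 3 of the 9, against 23.4%, with 2 higher (10.7%) and 1 lower (12.7%). Each pair of these comparisons shares the libraries of 1 group, so the values are given side by side and not correlated.

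**Figure D2:**
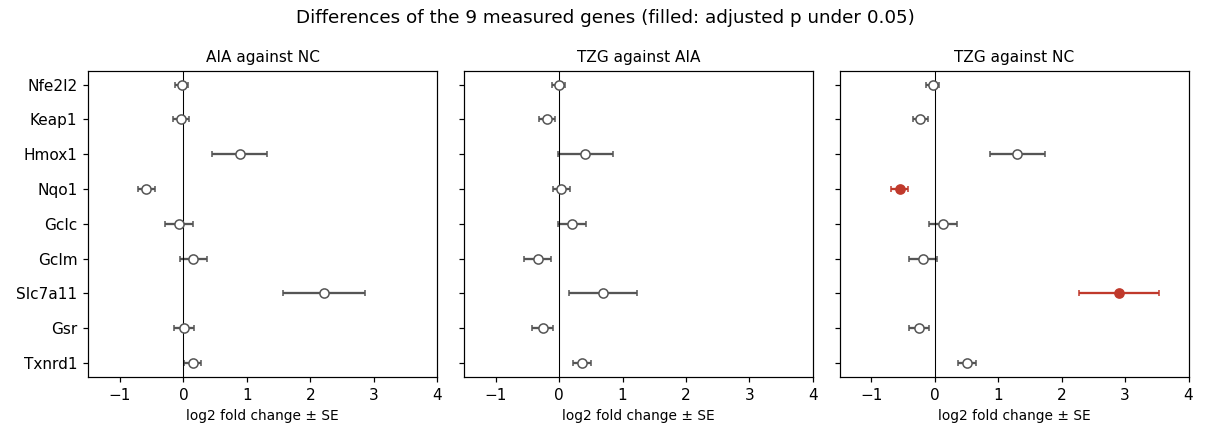
Log2 fold change ± SE (edgeR, 3 libraries a group) of each measured gene in AIA against NC, TZG against AIA and TZG against NC; filled points have an adjusted p under 0.05. Only Slc7a11 at 2.91 and Nqo1 at -0.55, both in TZG against NC, are filled.

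On a scale per transcript length (FPKM, fragments scaled to transcript length and library total), the order of levels in TZG was Hmox1, Nfe2l2, Txnrd1, Gsr, Keap1, Gclm, Gclc, Nqo1 and Slc7a11. Hmox1 averaged 46.9 ± 11.8 FPKM in TZG, 35.5 ± 12.9 FPKM in AIA and 18.4 ± 9.85 FPKM in NC (SD, n = 3 each). Nfe2l2 averaged 44.8 ± 4.73 FPKM in TZG, 45.0 ± 2.16 FPKM in AIA and 43.5 ± 5.63 FPKM in NC. Hmox1 and Nfe2l2 were thus within their spread in TZG and AIA, while in NC every Hmox1 value, at most 25.95 FPKM, lay below every Nfe2l2 value, at least 37.1 FPKM. Txnrd1 followed with 32.9 ± 4.28 FPKM in TZG, 25.6 ± 2.96 FPKM in AIA and 21.7 ± 1.82 FPKM in NC. Gsr averaged 24.5 ± 1.73 FPKM in TZG, 29.3 ± 6.14 FPKM in AIA and 27.4 ± 2.14 FPKM in NC. Keap1, Gclm and Gclc averaged 16.9, 15.1 and 13.9 FPKM in TZG with overlapping libraries, so their order does not exceed their spread. Nqo1 averaged 10.1 ± 0.615 FPKM in TZG, 9.84 ± 1.24 FPKM in AIA and 14.0 ± 1.03 FPKM in NC. Slc7a11 was far below all of them, at 0.202 ± 0.0248 FPKM in TZG, 0.125 ± 0.0219 FPKM in AIA and 0.0240 ± 0.0208 FPKM in NC.

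Nfe2l2, the transcription factor itself, varied least among the 9 genes. Its levels were 107, 102 and 95.6 CPM in TZG, 107, 101 and 97.5 CPM in AIA and 106, 111 and 94.6 CPM in NC. The groups overlapped fully, and the highest library was 1.18 times the lowest. Its log2 fold change was -0.03 ± 0.10 (SE; edgeR adjusted p = 0.928) in AIA against NC, -0.01 ± 0.10 (adjusted p = 0.98) in TZG against AIA and -0.04 ± 0.10 (adjusted p = 0.849) in TZG against NC. Nfe2l2 (ENSRNOG00000001548) lies on chromosome 3 at 62497571-62524996 in the table's coordinates. Which build these coordinates use is not given in the sources used here. Over the 9 libraries, the genes with the most similar pattern were Adgrg6, Ust and Lyve1, with Pearson r of log2 CPM of 0.958, 0.955 and 0.946; such values describe libraries that differ in tissue make-up.

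Keap1, the NRF2 sensor, had 56.1, 49.5 and 51.6 CPM in TZG, 60.0, 58.5 and 60.7 CPM in AIA and 57.5, 53.9 and 72.5 CPM in NC. Every TZG library was below every AIA library, and C61 was the highest of all. The log2 fold change was -0.19 ± 0.12 in TZG against AIA (edgeR adjusted p = 0.543), -0.23 ± 0.12 in TZG against NC (adjusted p = 0.266) and -0.04 ± 0.12 in AIA against NC (adjusted p = 0.922). The ratio of Keap1 to Nfe2l2 FPKM ran from 0.353 to 0.559 over the 9 libraries. The muscle-rich library C61 held the highest ratio. Keap1 (ENSRNOG00000020878, chromosome 8 at 22250518-22259779) had a pattern like Frs3 and Sirt3, with r of 0.981 and 0.97 over 9 libraries.

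Hmox1, the inducible haem oxygenase that splits haem into biliverdin, iron and carbon monoxide, varied most among the well-expressed genes. It had 71.0, 51.8 and 95.7 CPM in TZG, 77.6, 46.4 and 40.1 CPM in AIA and 34.6, 41.1 and 12.6 CPM in NC. All TZG libraries were above all NC libraries; AIA overlapped both. The log2 fold change in TZG against NC was 1.302 ± 0.44 (edgeR unadjusted p = 0.0163, adjusted p = 0.0913), which did not pass. DESeq2 called it, with an adjusted p of 0.0209, and the authors' deposited table lists Hmox1 in that comparison with a log2 fold change of 1.305 and a q-value of 0.0166. The edgeR fold change was 0.89 ± 0.44 in AIA against NC (adjusted p = 0.382) and 0.41 ± 0.43 in TZG against AIA (adjusted p = 0.704). Without C61, the lowest library, the fold change in TZG against NC was 0.95 (log2). C61 had the lowest summed macrophage markers, 261 CPM, while M6 had the highest, 1275 CPM, with 46.4 CPM of Hmox1. The highest library, G48, was rich in cartilage, bone and neutrophil markers, while M8, also rich in neutrophil markers, was the lowest of AIA. The part of these cell types in the Hmox1 values was not tested. Without C61, M8 and G48 together, the log2 fold change was 0.70 in TZG against NC and 0.00 in TZG against AIA. The ratio of Hmox1 to Hmox2, its constitutive relative, was 2.34, 1.65 and 3.1 in TZG, 2.12, 1.52 and 1.45 in AIA and 0.999, 1.28 and 0.355 in NC on the FPKM scale. Hmox1 (ENSRNOG00000014117, chromosome 19 at 14508616-14515456) was most like Sectm1b, Tram2 and Lrp1, with r of 0.961, 0.959 and 0.948.

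Nqo1, the quinone reductase often used as a readout of NRF2 activity, moved the other way. It had 15.0, 16.1 and 15.7 CPM in TZG, 15.7, 13.0 and 17.1 CPM in AIA and 22.8, 23.6 and 22.4 CPM in NC. All 6 TZG and AIA libraries lay below all NC libraries, and the NC libraries stood close together. Nqo1 fell in TZG against NC by 0.55 ± 0.13 on the log2 scale (edgeR adjusted p = 0.0343). In AIA against NC the log2 fold change was of like size, -0.59 ± 0.13, but did not pass (unadjusted p = 0.00169, adjusted p = 0.108), while DESeq2 gave an adjusted p of 0.00251. TZG against AIA gave 0.03 ± 0.13 (adjusted p = 0.941). The authors' deposited table lists q-values of 0.338 in TZG against NC and 0.332 in AIA against NC for Nqo1. The TZG against NC call was lost without C56 (adjusted p = 0.0877), C59 (0.0793), C61 (0.0548), G30 (0.105), G31 (0.081), G48 (0.0733) or M2 (0.0549), each fit having 1 library fewer, while the log2 fold change stayed between -0.57 and -0.52. It was also lost with 2 groups fitted at a time (0.0607), on the log2(FPKM + 1) scale (0.0628) and, at 0.05, without C61, M8 and G48. Nqo1 (ENSRNOG00000012772, chromosome 19 at 38422164-38437180) had a pattern like Stxbp3 and Fhl1, with r of 0.952 and 0.942.

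Slc7a11 encodes the light chain of the cystine/glutamate antiporter, which supplies cysteine for glutathione. It had 22, 26 and 32 reads in TZG, 12, 18 and 17 reads in AIA and 5, 5 and 0 reads in NC. These correspond to 1.47, 1.80 and 2.04 CPM in TZG, 0.880, 1.22 and 1.17 CPM in AIA and 0.317, 0.329 and 0 CPM in NC, where the 0 allows up to 0.265 CPM (3 reads, counting error only). The 3 groups did not overlap, with TZG above AIA and AIA above NC. Slc7a11 rose in TZG against NC by 2.91 ± 0.63 on the log2 scale (edgeR adjusted p = 0.0271), from 80 reads in all TZG libraries together and 10 in all NC libraries. The fold change was 2.22 ± 0.64 in AIA against NC (unadjusted p = 0.00747, adjusted p = 0.158; DESeq2 adjusted p = 0.0161) and 0.69 ± 0.54 in TZG against AIA (adjusted p = 0.603), neither past the edgeR threshold. The authors' deposited table lists Slc7a11 with a log2 fold change of 2.91 and a q-value of 0.00156 in TZG against NC, and a q-value of 0.0577 in AIA against NC. The TZG against NC call was lost without C56 (edgeR adjusted p = 0.0741), C59 (0.0567), G30 (0.0617), G31 (0.0728), G48 (0.0593) or M6 (0.0513), and on the log2(FPKM + 1) scale, which flattens such low values, its adjusted p was 0.16; with 2 groups fitted at a time it was 0.0598. Slc3a2, which encodes the antiporter's heavy chain, averaged 177 ± 13.9 CPM in TZG, 177 ± 20.3 CPM in AIA and 197 ± 9.71 CPM in NC (adjusted p = 0.436 in TZG against NC). Slc7a11 (ENSRNOG00000010210, chromosome 2 at 139453774-139528162) had a pattern like Bub1b, a mitotic checkpoint kinase, and Hk3, a hexokinase, with r of 0.986 and 0.985 over 9 libraries. Summed neutrophil and red cell precursor markers were likewise higher in every TZG and AIA library than in every NC library. This also held for the marker sums of B or plasma cells and of T or NK cells. Single markers did not all follow: Gzmb, from the T or NK list, was at 0.256 CPM in G48 and 0.381 CPM in C56. The part of these cell types in the Slc7a11 values was not tested.

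**Figure D3:**
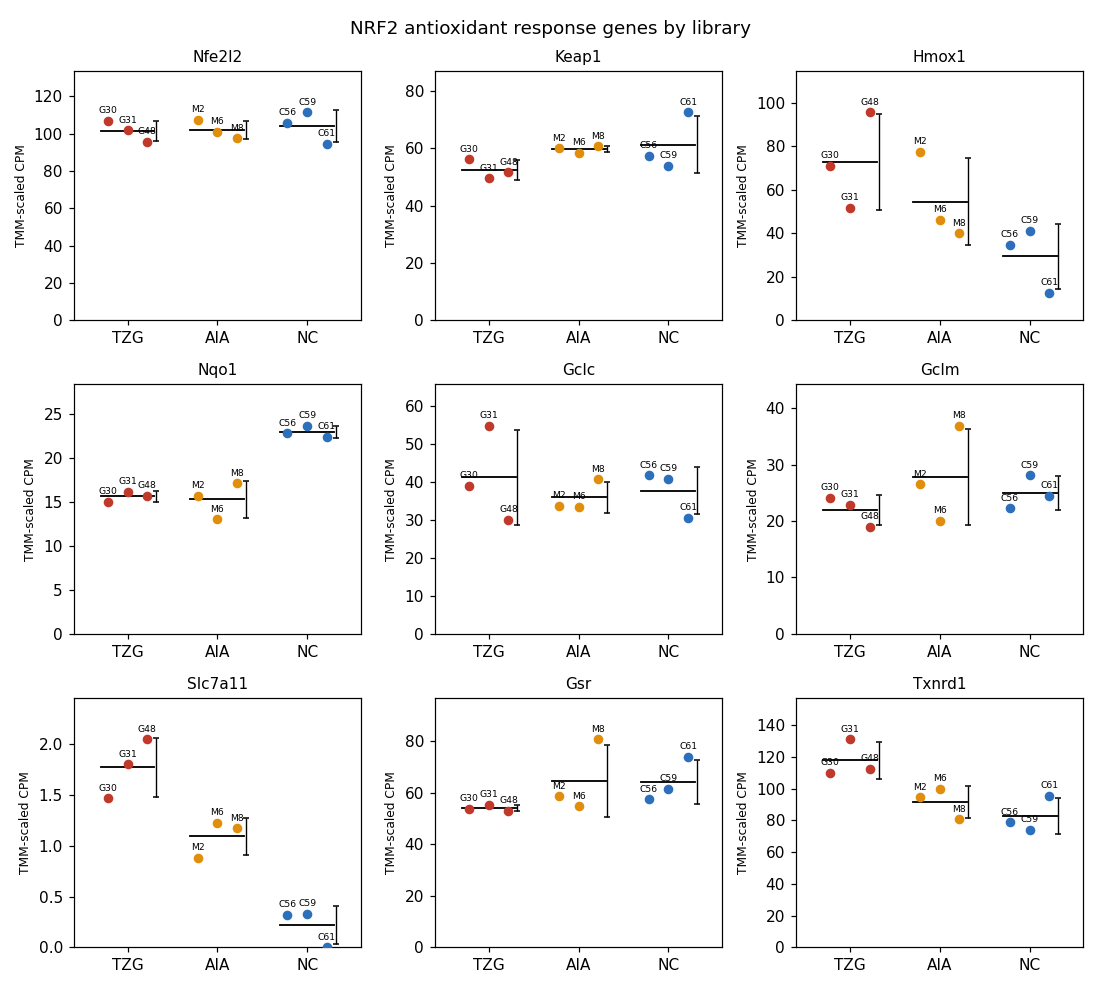
TMM-scaled CPM of the 9 measured genes in each library of TZG, AIA and NC, with the group mean ± SD (n = 3 libraries). Slc7a11 is highest in TZG, intermediate in AIA and lowest in NC, without overlap, Nqo1 is lower in all TZG and AIA libraries than in NC, and Nfe2l2 is level.

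Gclc and Gclm are the catalytic and the modifier subunit of glutamate-cysteine ligase, the rate-limiting enzyme of glutathione synthesis. Gclc had 39.1, 54.9 and 30.0 CPM in TZG, 33.8, 33.6 and 40.8 CPM in AIA and 41.8, 40.9 and 30.7 CPM in NC. Gclm had 24.1, 22.9 and 19.0 CPM in TZG, 26.5, 20.1 and 36.9 CPM in AIA and 22.3, 28.1 and 24.5 CPM in NC, in the same order of libraries. The groups overlapped for both genes in every comparison. For Gclc the log2 fold change was 0.13 ± 0.22 in TZG against NC (edgeR adjusted p = 0.742), 0.20 ± 0.22 in TZG against AIA (adjusted p = 0.726) and -0.07 ± 0.22 in AIA against NC (adjusted p = 0.92). For Gclm it was -0.18 ± 0.22 in TZG against NC (adjusted p = 0.62), -0.34 ± 0.22 in TZG against AIA (adjusted p = 0.53) and 0.16 ± 0.22 in AIA against NC (adjusted p = 0.798). The extremes were G31 for Gclc and M8 for Gclm, and the ratio of Gclm to Gclc FPKM ran from 0.855 in G31 to 1.85 in M8. Gclc (ENSRNOG00000006302, chromosome 8 at 85059051-85097468) was most like Rasgef1b, Rnh1 and Pspc1, with r of 0.965, 0.889 and 0.876. Gclm (ENSRNOG00000013409, chromosome 2 at 225827504-225847874) was most like Pnisr, Usp33 and Ube4a, with r of 0.931, 0.914 and 0.904.

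Gsr, the reductase that regenerates glutathione with NADPH, had 53.7, 55.2 and 53.0 CPM in TZG, 58.6, 54.7 and 80.6 CPM in AIA and 57.4, 61.4 and 73.8 CPM in NC. The TZG libraries lay close together and below all NC libraries, and M8, the library rich in red cell precursor and neutrophil markers, was highest. Differences did not pass: -0.25 ± 0.16 on the log2 scale in TZG against NC (edgeR adjusted p = 0.34), -0.26 ± 0.16 in TZG against AIA (adjusted p = 0.514) and 0.01 ± 0.16 in AIA against NC (adjusted p = 0.986). Gsr (ENSRNOG00000014915, chromosome 16 at 62197617-62241361) overlaps a small nucleolar RNA row that held 4 reads in all libraries together, against 7883 for Gsr. Its pattern was most like Psmf1, Urod and Lgals9, with r of 0.979, 0.966 and 0.953.

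Txnrd1, the cytosolic selenoenzyme that reduces thioredoxin, had 110, 131 and 112 CPM in TZG, 94.6, 99.9 and 80.7 CPM in AIA and 78.8, 74.2 and 95.7 CPM in NC. All TZG libraries were above all AIA and all NC libraries, while AIA and NC overlapped. The log2 fold change was 0.51 ± 0.14 in TZG against NC, with an edgeR adjusted p of 0.0503, just outside the threshold. It was 0.36 ± 0.14 in TZG against AIA (unadjusted p = 0.0281, adjusted p = 0.345) and 0.15 ± 0.14 in AIA against NC (adjusted p = 0.684). In TZG against NC, Txnrd1 passed without C61 (adjusted p = 0.037), without C61, M8 and G48 (0.0191), with DESeq2 (0.00856), on the log2(FPKM + 1) scale (0.0384) and at 0.0496 with RLE factors or a stricter filter. These are 6 of the 19 fits run, and Txnrd1 missed the threshold in the others. The authors' deposited table lists a q-value of 0.382 for it. The ratio of Txnrd1 to Gsr FPKM was 1.26, 1.46 and 1.3 in TZG, 0.992, 1.12 and 0.615 in AIA and 0.843, 0.742 and 0.796 in NC, so that the TZG libraries lay above the others. Txnrd1 (ENSRNOG00000009088, chromosome 7 at 26946125-26984400) was most like Mydgf, Rexo2 and Utp23, with r of 0.989, 0.975 and 0.974.

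Among the 9 genes themselves, the pair with the most similar pattern over the 9 libraries was Hmox1 and Slc7a11, with r of 0.871, followed by Gclm and Gsr with 0.785. Nqo1 ran opposite to Slc7a11, with r of -0.806, and to Hmox1, with -0.636. Nfe2l2 had an r of 0.025 with Slc7a11 and 0.165 with Nqo1. These values describe 9 libraries that share group differences and tissue make-up. Those with Slc7a11 rest on 0 to 32 reads per library.

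The wider pathway was described from a list of 72 further genes in 9 role groups, of which 67 had a row and 66 were tested. None passed in AIA against NC or in TZG against AIA, where 15 of the 66 (22.7%, against 15% of all genes) and 13 (19.7%, against 12.6%) had an edgeR unadjusted p under 0.05. In TZG against NC, 13 of the 66 passed, against 10.3% of all genes. Of these, 4 were higher in TZG, where 5.79% of all genes were, and 9 lower, where 4.53% were. The same shares stand beside the role group counts below. The list was chosen with earlier results of these data known, so these counts are no test of the pathway. The median log2 fold change of the 66 was 0.10 in AIA against NC, -0.05 in TZG against AIA and 0.01 in TZG against NC. Of the 66, 42.4% had TZG libraries that did not overlap with NC, against 32.6% of all genes; the 13 were among them. Of these 13 genes, DESeq2 called Rac2, Glrx, Slc48a1, Sod2, Sqstm1 and Gstm1 in AIA against NC (adjusted p from 2.51e-05 to 0.0456). In TZG against AIA it called Sod2 and Sod3 (0.0356 and 0.0485). Of all genes it tested, DESeq2 called 6.26% and 2.12% in these comparisons. Each comparison shares the libraries of 1 group with TZG against NC, so such calls are no separate support for the 13 genes. The fit on the 5 libraries placed by number held only G30 from TZG and M6 from AIA, so its calls are not given. Glrx, Sod2 and Slc48a1 passed in every fit that left out 1 library, and each of the other 10 missed the threshold in at least 1 such fit. With 2 groups fitted at a time, Ephx1, Gstm1, Gstp1, Mafk, Ncf4, Sod3 and Sqstm1 missed it (adjusted p from 0.0571 to 0.0789). On the log2(FPKM + 1) scale Gstm1 (0.0622) and Mafk (0.0766) missed it. Mafk also missed it without C61, M8 and G48 (0.119) and without a filter on low counts (0.051). The authors' deposited q-values in TZG against NC were 0.318 for Sqstm1, 0.207 for Mafk, 0.163 for Gstm1, 0.0896 for Slc48a1 and 0.0582 for Sod3. The rest of the 13 had q-values under 0.05, as had 8.54% of listed genes. In AIA against NC the list's deposited q-values under 0.05 were those of Glrx (0.0136), Rac2 (1e-08), Sod2 (0.0372) and Atf3 (0.0275), against 4.32% of listed genes.

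**Figure D4:**
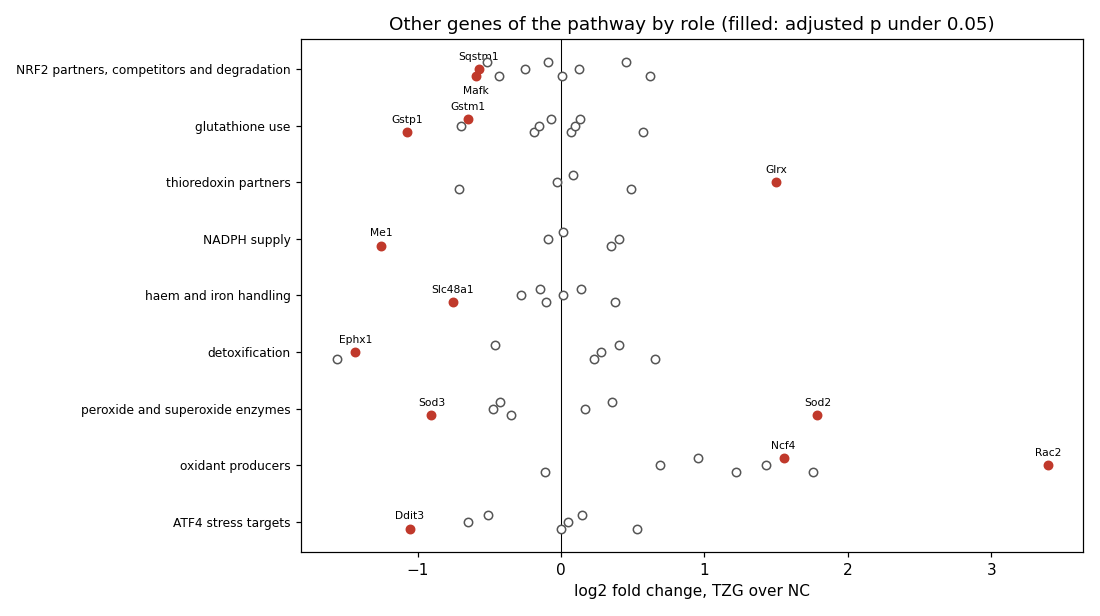
Log2 fold change of TZG over NC for 66 tested pathway genes, in 9 role groups; filled, named points have an edgeR adjusted p under 0.05. Oxidant producers lie mostly to the right, with Rac2 at 3.39, and 9 of the 13 filled points lie to the left. Of all genes tested, 5.79% passed higher and 4.53% passed lower.

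Among partners, competitors and degradation factors of NRF2, 2 of 10 passed, both lower in TZG than in NC. Sqstm1, the autophagy receptor p62 that binds KEAP1, had 224, 232 and 263 CPM in TZG, 298, 241 and 267 CPM in AIA and 370, 365 and 335 CPM in NC. It fell by 0.57 ± 0.13 on the log2 scale (edgeR adjusted p = 0.0297), a call lost without C56, C59, G30 or G31 (adjusted p from 0.0663 to 0.101). Mafk, a small MAF partner, averaged 39.1 ± 4.38 CPM in TZG, 45.7 ± 5.97 CPM in AIA and 59.0 ± 8.35 CPM in NC. It fell by 0.60 ± 0.15 (adjusted p = 0.0405), a call lost without C56, C61, G30, G31, G48, M2 or M8 (adjusted p from 0.0567 to 0.113). Mafg, another small MAF, did not pass, with 29.2 ± 2.64 CPM in TZG and 21.4 ± 2.68 CPM in NC (adjusted p = 0.0605). Bach1, a repressor that competes for the same elements, did not pass either, with 26.6 ± 4.74 CPM in TZG and 17.2 ± 3.63 CPM in NC (adjusted p = 0.0736). Cul3, the scaffold of the ligase that KEAP1 serves, had 93.9 ± 9.79 CPM in TZG and 93.3 ± 2.36 CPM in NC. The examples that did not pass were chosen after their values were seen.

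In glutathione use, 2 of 10 tested genes passed, both transferases that were lower in TZG than in NC; members of this family share near-identical copies, so their counts are uncertain. Gstp1 averaged 61.8 ± 6.57 CPM in TZG, 81.3 ± 11.4 CPM in AIA and 130 ± 52.5 CPM in NC, the highest value being 191 CPM in C61. It fell by 1.07 ± 0.25 (edgeR adjusted p = 0.0349), a call lost without C56, G30, G31, G48, M2 or M6 (adjusted p from 0.0554 to 0.101). Without C61, the library rich in muscle markers, the log2 fold change was -0.67 (adjusted p = 0.033). Gstm1 averaged 23.4 ± 2.46 CPM in TZG, 26.7 ± 1.98 CPM in AIA and 36.6 ± 4.02 CPM in NC. It fell by 0.65 ± 0.13 (adjusted p = 0.0231), a call lost without C56, C59, G30, G31 or G48 (adjusted p from 0.0536 to 0.0716).

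Among thioredoxin partners, 1 of 5 passed. Glrx, a glutaredoxin that reduces protein-glutathione disulphides, had 63.1, 86.6 and 69.9 CPM in TZG, 38.04, 51.04 and 59.34 CPM in AIA and 24.8, 30.9 and 22.0 CPM in NC. The 3 groups did not overlap. Glrx rose by 1.498 ± 0.20 on the log2 scale in TZG against NC (edgeR adjusted p = 0.0133). It stood at 0.93 ± 0.20 in AIA against NC (adjusted p = 0.103, with DESeq2 0.00261; q-value of 0.0136 in the authors' deposited table) and 0.56 ± 0.20 in TZG against AIA (adjusted p = 0.325). Txn1, the thioredoxin that Txnrd1 reduces, averaged 122 ± 19.7 CPM in TZG, 96.3 ± 10.1 CPM in AIA and 86.7 ± 10.7 CPM in NC and did not pass in TZG against NC (adjusted p = 0.0709).

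In NADPH supply, 1 of 5 tested genes passed. Me1, malic enzyme, which adipocytes also use for fat synthesis, had 84.5, 57.2 and 52.1 CPM in TZG, 80.1, 74.3 and 144 CPM in AIA and 141, 138 and 184 CPM in NC. It fell by 1.25 ± 0.29 in TZG against NC (edgeR adjusted p = 0.0326), a call lost without C56, C59, C61, G31 or G48 (adjusted p from 0.058 to 0.0982). Summed adipocyte markers ran from 2925 to 6053 CPM in TZG, 7202 to 8778 CPM in AIA and 2460 to 9458 CPM in NC; their part was not tested.

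In haem and iron handling, 1 of 7 passed. Slc48a1, a haem transporter of the endolysosome, had 69.4, 71.8 and 63.0 CPM in TZG, 89.4, 77.2 and 90.6 CPM in AIA and 112, 108 and 124 CPM in NC. The 3 groups did not overlap, in the reverse order of Glrx. Slc48a1 fell by 0.75 ± 0.11 in TZG against NC (edgeR adjusted p = 0.0141), with -0.42 ± 0.11 in AIA against NC (adjusted p = 0.132, with DESeq2 0.0105) and -0.33 ± 0.11 in TZG against AIA (adjusted p = 0.314). The biliverdin reductase Blvra, which acts after Hmox1, was level at 29.1 ± 2.06 CPM in TZG, 28.5 ± 3.02 CPM in AIA and 28.8 ± 1.43 CPM in NC.

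In detoxification, 1 of 7 tested genes passed. Ephx1, microsomal epoxide hydrolase, had 67.6, 54.0 and 26.6 CPM in TZG, 102, 82.3 and 114 CPM in AIA and 102, 137 and 162 CPM in NC. It fell by 1.43 ± 0.32 in TZG against NC (edgeR adjusted p = 0.0306), a call lost without C56, C59, C61, G31 or M2 (adjusted p from 0.05 to 0.0791). TZG libraries were also below all AIA libraries, with a log2 fold change of -1.01 ± 0.32 (unadjusted p = 0.0127, adjusted p = 0.313).

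The promoter windows of 3 of these lower genes held the TGACTCAGC form of the core. TGACTCAGC, or the same letters read on the other strand, stood before Gstp1, Me1 and Ephx1 (1 of its 2 windows), with matches starting 61, 167 and 57 bases before the start. Windows existed for 9 of the 13 genes that passed, and 5 of these held TGACNNNGC: these 3, Mafk and Sod2. Across all windows, 12.1% held TGACNNNGC and 0.415% held TGACTCAGC. The list was built around the NRF2 pathway, and its genes that did not pass were not searched. No link between the element and the lower levels can therefore be read from these matches. The stretches are on the minus strands of chr1:210769733-210769791 (Gstp1), chr8:96540378-96540436 (Me1) and chr13:95263141-95263199 (Ephx1) in GRCr8, with the match in capitals and 25 bases on each side.
Gstp1: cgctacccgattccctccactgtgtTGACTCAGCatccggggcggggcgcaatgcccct
Me1: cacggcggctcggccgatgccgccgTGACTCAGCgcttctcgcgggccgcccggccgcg
Ephx1: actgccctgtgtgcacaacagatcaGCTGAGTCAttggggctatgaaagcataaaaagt

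Of the enzymes that remove superoxide and peroxide, 2 of 7 passed, in opposite directions. Sod2, the mitochondrial superoxide dismutase, which cytokines also induce, had 560, 427 and 337 CPM in TZG, 253, 300 and 172 CPM in AIA and 118, 131 and 135 CPM in NC. The 3 groups did not overlap, and Sod2 rose by 1.79 ± 0.24 in TZG against NC (edgeR adjusted p = 0.0133). The log2 fold change was 0.87 ± 0.24 in TZG against AIA (adjusted p = 0.282, with DESeq2 0.0356) and 0.92 ± 0.24 in AIA against NC (adjusted p = 0.132, with DESeq2 0.0112 and, in edgeR without C61, M8 and G48, 0.0363). Sod3, the extracellular dismutase, averaged 310 ± 65.5 CPM in TZG, 480 ± 28.9 CPM in AIA and 580 ± 73.9 CPM in NC. It fell by 0.90 ± 0.18 in TZG against NC (adjusted p = 0.0225), a call lost without C56, C59 or G31 (adjusted p from 0.0543 to 0.0706). In TZG against AIA Sod3 had a DESeq2 adjusted p of 0.0485 and an edgeR adjusted p of 0.295.

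Of the genes for oxidant producers, 2 of 8 tested passed, both higher in TZG than in NC, and the median log2 fold change of the 8 was 1.32. Rac2, the small GTPase of the phagocyte NADPH oxidase, had 72.8, 44.7 and 175 CPM in TZG, 30.5, 61.4 and 140 CPM in AIA and 7.04, 10.9 and 9.88 CPM in NC. G48 and M8, the highest, were also the libraries with the highest summed neutrophil markers, at 3199 and 2908 CPM; the part of neutrophils was not tested. Rac2 rose by 3.39 ± 0.67 in TZG against NC (edgeR adjusted p = 0.0217), a call lost without C56, C59 or C61 (adjusted p from 0.0501 to 0.0742). In AIA against NC its log2 fold change was 3.06 ± 0.66 (edgeR adjusted p = 0.104, DESeq2 adjusted p = 2.51e-05). Ncf4, an oxidase subunit, averaged 44.5 ± 10.3 CPM in TZG, 30.4 ± 5.51 CPM in AIA and 15.1 ± 6.12 CPM in NC. It rose by 1.55 ± 0.32 in TZG against NC (adjusted p = 0.0255), a call lost without C56, G30 or G48 (adjusted p from 0.0532 to 0.0674).

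Among ATF4, a stress factor that also drives Slc7a11, and its targets, 1 of 7 passed. Ddit3, which encodes the stress factor CHOP, averaged 16.1 ± 1.14 CPM in TZG, 22.8 ± 5.61 CPM in AIA and 33.3 ± 7.56 CPM in NC. It fell by 1.05 ± 0.21 in TZG against NC (edgeR adjusted p = 0.0228), a call lost without G30, G31 or G48 (adjusted p from 0.0539 to 0.0653). The Ddit3 row overlaps that of Mars, which held 8134 reads in all libraries together against 3079 for Ddit3, so reads of the 2 genes may not be fully separated. Atf4 itself averaged 211 ± 21.1 CPM in TZG, 184 ± 12.4 CPM in AIA and 211 ± 36.7 CPM in NC. Asns, an amino acid synthesis target of ATF4, had 47.9 ± 14.6 CPM in TZG, 60.9 ± 18.9 CPM in AIA and 33.2 ± 17.3 CPM in NC and did not pass (adjusted p = 0.422 in TZG against NC).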

How the data were processed

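RNA-seq of rat synovium was analysed in 9 libraries, 3 per group. The main values are raw read counts, whole numbers per gene as deposited by the authors. FPKM values, deposited beside them per the file headers, served only to compare levels between genes and in 1 alternative. Log2 fold changes and q-values of the authors' own comparisons stand in their deposited table. The submitters' processing notes name edgeR 3.30.3, StringTie 1.3.3b, HISAT2 and fastp without saying what each did. The genome build is not given in the sources used here. Of the libraries, 5 were matched to a sample by the number in the column name and 4 (G31, G48, M2, M8) were placed by group letter only. The FPKM columns of these 4 were not used; their FPKM were recomputed from counts and from the gene lengths that the other FPKM columns imply, and the resulting group means matched the authors' means within a relative difference of 7.32e-04.

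The counts were tested with edgeR 4.0.16 (R 4.3.3): robust quasi-likelihood fit of all 9 libraries with a mean per group, TMM factors, filterByExpr, Benjamini-Hochberg adjustment over 15068 genes, threshold 0.05. CPM are TMM-scaled, errors are SD of 3 libraries, and standard errors of fold changes are the fold change over the square root of F. At these depths 3 reads correspond to 0.19 to 0.265 CPM; floors cover counting error only. DESeq2 1.42.0, limma-voom (limma 3.58.1), other factors and filters, log2(FPKM + 1) with limma, smaller sets of libraries and leaving out 1 library at a time were the alternatives.

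The members and the pathway and marker lists were chosen with earlier results of these data known. All members, pathway genes past the threshold and, for each member, the 3 genes of highest Pearson r of log2 CPM (prior count 2, mean of at least 5 CPM) were named; other pathway genes were chosen after their values were seen. Of the pathway list, 5 genes had no matching row and are not analysed here, among them Gstm2, Pgd, Akr1b8 and Ugt1a6, and some markers, such as Pecam1 and Cd79a, were not matched. Some genes that the naming rule takes are not reported here. Promoter sequences and starts are RefSeq's for GRCr8; table coordinates were not converted.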

Additional observations from a re-analysis of the deposited data

How the results depend on the processing

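Of 66 fold changes of members and passing pathway genes followed over 19 fits, 51 kept their sign in every alternative and 15 turned in at least 1. In TZG against NC, 2 members passed the threshold, against 4 with DESeq2 and 1 on log2(FPKM + 1). None passed with 2 groups at a time, and 0 to 2 when 1 library was left out (leave-one-out). The fit on the 5 columns matched by number held only G30 from TZG and M6 from AIA. It is among the 19 fits, but its calls are not listed. Slc7a11 passed in 10, Nqo1 in 8 and Txnrd1 in 6 of the 19 fits. In AIA against NC the members numbered 0, and 2 with DESeq2; in TZG against AIA they numbered 0 in every fit. All genes past the threshold in TZG against NC numbered 1555, against 2951 with DESeq2 and 763 with 2 groups at a time. With 1 library left out they numbered 335 to 1314. In AIA against NC they numbered 2, against 940 with DESeq2, 5 on log2(FPKM + 1) and 4 without a filter on low counts. They numbered 1 with voom and 1 with 2 groups at a time. Without C61, M8 and G48 they numbered 180, and with 1 library left out 0 to 98. In TZG against AIA they numbered 0, against 300 with DESeq2 and 1 without C61, M8 and G48. The cause of the difference between edgeR and DESeq2 was not tested; the fits with fewer libraries have fewer degrees of freedom.

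Log2 fold changes that turned sign, none of them past the threshold, were these. In AIA against NC, Gsr came to -0.0013 with voom, -0.23 with 5 columns and -0.0728 without C61, M8 and G48, and Gclm to -0.3126 with 5 columns and -0.1162 without those libraries. Keap1 came to 0.0853 without those libraries and 0.0525 on log2(FPKM + 1), where Nfe2l2 came to 0.0543 and Gclc to 0.0187. In TZG against AIA, Nfe2l2 came to 0.005 with RLE factors, 0.005 with DESeq2, 0.0808 with 5 columns and 0.0121 without those libraries. Gclm came to 0.2656 with 5 columns and 0.0245 without those libraries. Gstm1 came to 0.0254 and Me1 to 0.1869 with 5 columns, and Hmox1 to -6e-04 without those libraries. With 5 columns this comparison sets G30 alone against M6 alone. In TZG against NC, Nfe2l2 came to 0.0411 with 5 columns and 0.0448 on log2(FPKM + 1). With 1 library left out, ranges that crossed 0 were, in AIA against NC, Nfe2l2 -0.0891 to 0.022, Keap1 -0.1237 to 0.1026, Gclc -0.1955 to 0.0047, Gclm -0.0989 to 0.3446 and Gsr -0.1805 to 0.1219. In TZG against AIA they were Nfe2l2 -0.0396 to 0.0435, Nqo1 -0.07 to 0.1206, Gclc -0.0467 to 0.3938 and Rac2 -0.3833 to 1.0859. In TZG against NC they were Nfe2l2 -0.0802 to 0.0142 and Gclc -0.1192 to 0.3215. No paired analysis was possible because the labels give no replicate numbers that pair libraries across groups. Among the 9 members, Slc7a11 had the fewest reads, 0 to 32 per library.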
